A study of Homo sapiens with 7 samples.

Results

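The cytosolic ribosomal protein genes are the genes whose products, together with ribosomal RNA, build the ribosome of the cytoplasm. They were chosen by name from the expression table of a YAP1 and TAZ knockdown in human keratinocytes, as symbols on chromosomes 1 to 22 or X that read RPL or RPS and a number (with A, X or L allowed as a last letter), together with RPLP0, RPLP1, RPLP2 and RPSA. The rule found 81 of the 16686 gene symbols in the table, 48 of the large (60S) and 33 of the small (40S) subunit. No measured value entered the rule. It also takes 4 genes that are not the standard copy of a ribosomal protein, among them the tissue-restricted or p53-linked paralogs RPL3L, RPL39L and RPS27L, and it leaves out FAU, whose product is a fusion that carries a ribosomal protein.

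RNA was sequenced from N/TERT2G cells, a keratinocyte line immortalised with telomerase. In 4 libraries (siYT A to D) YAP1 and TAZ, the product of WWTR1, had been depleted together with pooled siRNAs, and 3 libraries (siCON A to C) came from cells given a non-targeting siRNA. Both groups received 8 pmol of siRNA per cm2 and were collected 48 h after transfection. Polyadenylated RNA was sequenced, so ribosomal RNA itself was not measured. The line is a single immortalised line, and the labels do not say whether replicates were separate platings, so the p-values speak only for the variation among the 7 libraries, part or all of which could be technical.

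A cell makes ribosomal proteins in equal numbers, because each ribosome holds a single copy of nearly all of them. Their mRNAs are short and abundant, and most begin with a 5′ terminal oligopyrimidine (TOP) tract, a C followed by a run of C and T (U in the RNA) that ties their translation and stability to mTORC1 signalling through LARP1. Many of the genes also carry small nucleolar RNAs (snoRNAs), which guide ribosomal RNA modification, in their introns. In keratinocytes, as in other growing cells, ribosome production is among the largest uses of transcription and translation.

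The TOP tract is shown for 10 chosen members, some that fell most, some that fell least and 1 paralog, RPS27L. RPS2, which fell most, had no promoter entry, and other members named below are not shown. Each line gives 30 bases of RefSeq promoter sequence (table of build GRCh38.p14), located in hg19 by an exact match, 10 bases before the annotated start and 20 from it on. Capitals mark the C at the start and the run of C and T behind it, and RPS27L has none because its start is not a C.
RPSA, chr3:39448201-39448230, plus strand: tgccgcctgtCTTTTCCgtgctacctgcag
RPS3, chr11:75110552-75110581, plus strand: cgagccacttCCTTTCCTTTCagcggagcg
RPL3, chr22:39715609-39715638, minus strand: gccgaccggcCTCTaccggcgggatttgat
RPLP0, chr12:120638895-120638924, minus strand: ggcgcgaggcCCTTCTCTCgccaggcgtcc
RPLP1, chr15:69745147-69745176, plus strand: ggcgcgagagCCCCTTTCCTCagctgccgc
RPLP2, chr11:809957-809986, plus strand: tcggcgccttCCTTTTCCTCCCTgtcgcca
RPL36, chr19:5690296-5690325, plus strand: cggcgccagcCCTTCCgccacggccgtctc
RPL39, chrX:118925574-118925603, minus strand: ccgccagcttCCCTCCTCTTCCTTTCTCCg
RPS27, chr1:153963228-153963257, plus strand: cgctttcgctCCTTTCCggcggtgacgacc
RPS27L, chr15:63449657-63449686, minus strand: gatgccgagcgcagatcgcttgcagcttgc

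A promoter sequence was matched for 63 of the 81 members. Counting as a TOP start a C at the first transcribed base with at least 4 further C or T behind it, 46 of the 63 (73.0%) had one. A symbol with several promoter entries was counted if any of them had such a start. The same was true of 5.14% of all 27305 symbols with a promoter and of 655 of the 9271 other genes tested here (7.07%). RPL3 falls short of the count with 3 pyrimidines after its C. A match describes the annotated start only, since start sites were not measured.

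Each library held approximately 20700000 to 23900000 reads, if its lowest value stands for about 1 read, and the deposited values are a TMM-normalised gene signal, close in size to CPM (reads scaled to library size) and not divided by transcript length. Differences were tested with limma on log2(signal + 0.5) over the 13072 genes that averaged at least 1, with Benjamini-Hochberg adjustment over all of them, and a gene was called at an adjusted p under 0.05 with a fold change of at least 1.5. The targets were lower in siYT, YAP1 by 3.55-fold (adjusted p = 1.60e-12) and WWTR1 by 6.04-fold (adjusted p = 2.26e-12). The 5 keratinocyte markers summed to 51911 to 54771 in siCON and 47478 to 51243 in siYT, with TP63 called higher and 0 called lower. Fibroblast markers summed to 227 to 256 and 186 to 193, of which nearly all was COL1A1 and DCN, and of 4 tested 2 were lower and 1 higher. Of 5 melanocyte and 3 leukocyte markers, MITF and PMEL averaged under 2 in each group, and CD68 did not pass (48.2 ± 2.98 and 52.4 ± 5.85, limma adjusted p = 0.197). The other 5 were not found among the gene symbols of the deposited values. The part of these markers in the results below was not tested. Between siYT A and siYT B the root mean square log2 difference over genes was 0.0626, against 0.114 to 0.147 for the other pairs within a group, and both libraries were kept.

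Nearly every ribosomal protein mRNA was lower after loss of YAP1 and TAZ. Of the 80 members tested, 69 fell past the threshold and 0 rose, where 13.2% of all genes tested were called lower and 14.1% higher. None of the members was called higher by the unadjusted p either, since none rose 1.5-fold. The median log2 fold change of the members was −0.76, beside 0.00 over all genes tested, with the quartiles of the members at −0.93 and −0.66. Adjusted p-values of the called members ran from 1.05e-10 to 1.34e-06 (limma). In 77 of the 80 every siYT library lay below every siCON library, a separation found for 34.7% of all genes tested. The 3 that did not separate this way were RPLP2, RPL39L and RPS27L. RPL3L was left untested because its signal averaged under 1. In bulk RNA, fewer cells of a type and less RNA per cell cannot be told apart.

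**Figure D1:**
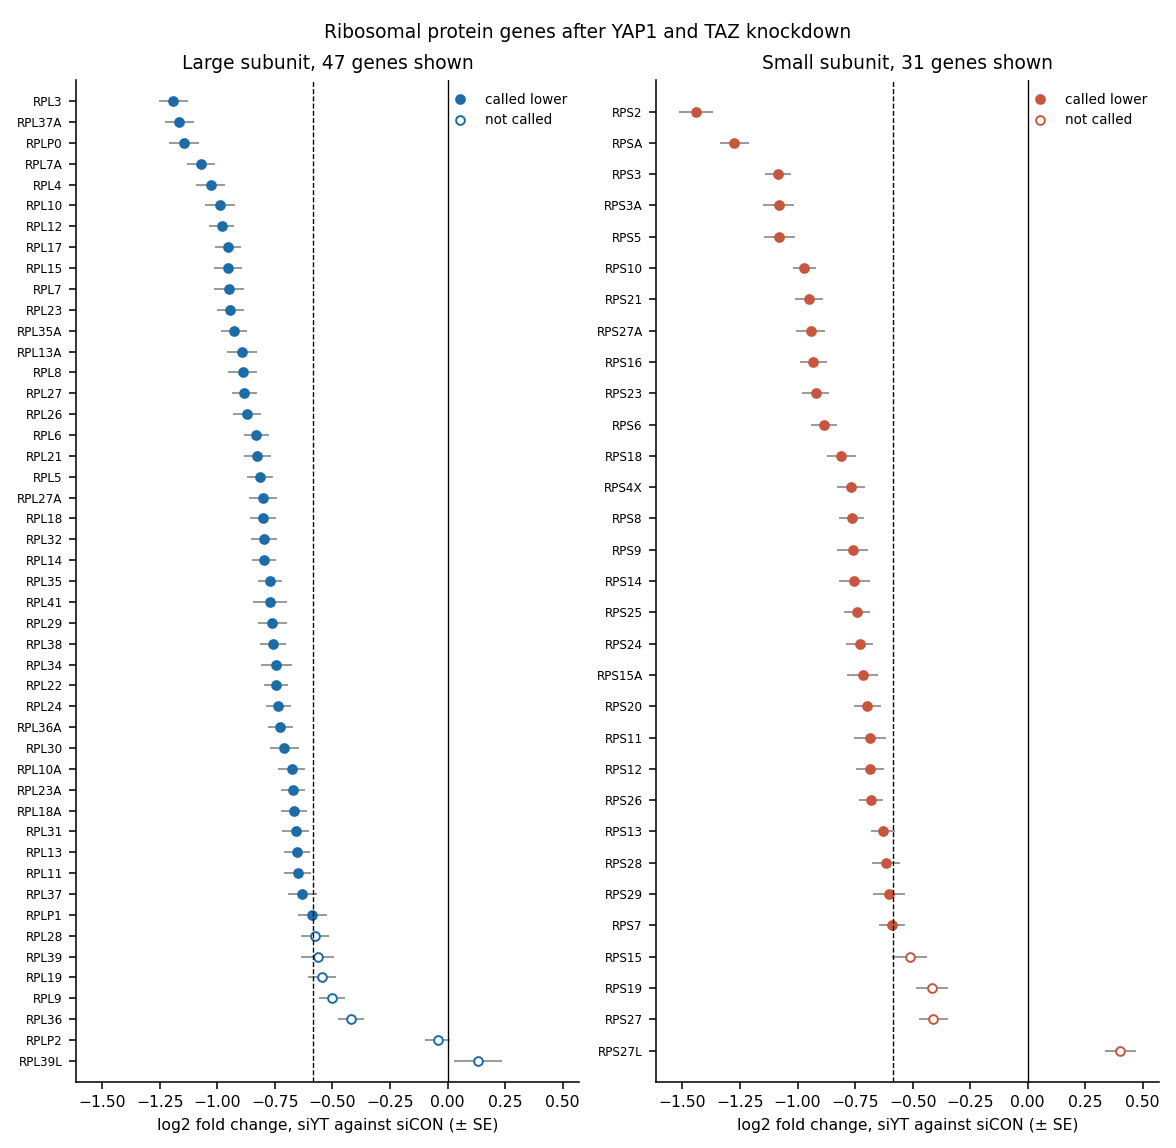
Log2 fold change (siYT, n = 4, against siCON, n = 3) with its standard error for 78 of the 80 ribosomal protein genes tested, by subunit, where filled points were called lower, open points were not called and the dashed line marks a 1.5-fold fall. All points lie left of 0 apart from RPL39L and RPS27L, and 67 are filled.

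The medians of the subunits lay close together. In the large subunit 40 of 47 tested genes fell and 7 were not called, and the median log2 fold change was −0.77. In the small subunit 29 of 33 fell and 4 were not called, and the median was −0.74. The spread within a subunit was far wider than the gap between the medians, from −1.19 to 0.13 for the large and from −1.44 to 0.40 for the small subunit. The summed signal of large subunit genes over that of small subunit genes was 1.65, 1.66 and 1.66 in siCON A to C. It was 1.64, 1.63, 1.67 and 1.64 in siYT A to D. The groups overlapped in this ratio, whose mean was 1.65 ± 0.00594 (SD, n = 3) in siCON and 1.65 ± 0.0203 (SD, n = 4) in siYT.

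Together the 81 genes made up a smaller part of each siYT library. They held 8.64%, 8.21% and 7.83% of the total signal in siCON A to C, and 5.02%, 5.10%, 4.73% and 4.99% in siYT A to D. The groups did not overlap, and the lowest siCON library stood well above the highest siYT library. As deposited signal the sum was 77979 ± 4090 in siCON and 43507 ± 1794 in siYT, 1.79-fold lower. The difference of 34472 between these means was 48.5% of the difference between the mean library totals of the groups. Because TMM scaling lets totals differ, a rescaling to equal totals was tried, and the sum was then lower by 1.66-fold. With equal totals the median of all genes was 0.11 on the log2 scale, 64.6% of all calls were upward in place of 51.6%, and 51 members (32 large, 19 small) were called lower against a background of 9.79%.

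**Figure D2:**
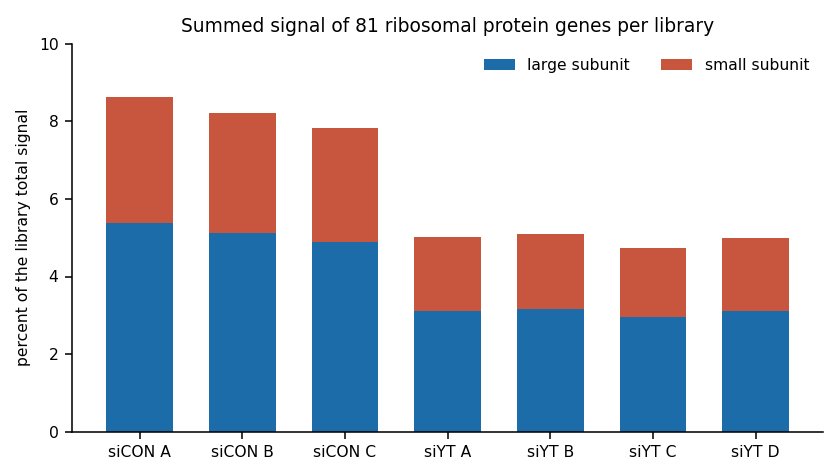
Summed signal of the 81 ribosomal protein genes as a percent of the total signal of each library, with the large subunit at the bottom and the small subunit on top of it. The 3 siCON bars reach 7.83% to 8.64% and the 4 siYT bars 4.73% to 5.10%, with the boundary between subunits at a like proportion in all 7.

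Libraries of a group differed from each other mostly in common. Of the 77 members other than those 4 genes that are not a standard copy, siYT C was the lowest siYT library in 71 and siCON C the lowest siCON library in 66. The median coefficient of variation of these genes was 6.24% in siCON and 4.76% in siYT. The median log2 level relative to the siCON mean was 0.07, 0.01 and −0.08 in siCON A to C and −0.74, −0.73, −0.86 and −0.78 in siYT A to D, so the shift between groups was several times the shift between libraries of a group.

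In the small subunit RPS2, RPSA, RPS3 and RPS3A had the largest falls. RPS2, which lines the mRNA entry (chromosome 16, 2012053 to 2014861, minus strand of hg19), had a signal of 2415, 2253 and 2057 in siCON A to C. In siYT A to D its signal was 897, 867, 766 and 772. The groups were far apart, with a log2 fold change of −1.44 ± 0.07 (SE), 2.71-fold lower (limma adjusted p = 1.38e-10). RPSA, also known as a laminin receptor, sits near the mRNA exit and had a signal of 1530, 1509 and 1347 in siCON. It was at 628, 638, 568 and 582 in siYT, a log2 fold change of −1.27 ± 0.06 (adjusted p = 1.05e-10). As for RPS2, siYT C was the lowest library. RPS3, at the mRNA entry and known for a role in DNA repair, went from 1693, 1605 and 1520 to 768, 781, 729 and 748, 2.12-fold lower. RPS3A, a neighbour of the mRNA exit, went from 1409, 1447 and 1205 to 647, 661, 617 and 623, likewise 2.12-fold lower. Over the 8 members fixed as mRNA channel proteins, 7 fell and RPS15 fell short of 1.5-fold (log2 fold change −0.51 ± 0.08), and the median was −0.84. That count is much like the 29 of 33 of the whole subunit, and with the trend on transcript length removed, a correction described further on, 4 of the 8 were called.

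In the large subunit RPL3, which reaches toward the peptidyl transferase centre, fell most (chromosome 22, 39708887 to 39716394, minus strand). Its signal was 2711, 2636 and 2428 in siCON and 1156, 1185, 1104 and 1092 in siYT, a log2 fold change of −1.19 ± 0.06 (SE, limma adjusted p = 1.96e-10). RPL37A, a zinc-binding protein, went from 826, 751 and 736 to 346, 376, 315 and 338 and was 2.24-fold lower. RPL7A, a protein of the 60S surface, was at 2215, 1995 and 1920 and then at 968, 972, 992 and 946. In each of these the siCON and siYT libraries were far apart. The members with the highest signal per gene, a value that also grows with transcript length, were RPL4, RPL13A and RPL3. RPL4, with a loop in the peptide exit tunnel, was at 3082, 3158 and 2902 in siCON against 1494, 1543, 1464 and 1466 in siYT (log2 fold change −1.03 ± 0.06). RPL13A, which in monocytes takes part in the interferon-gamma-activated inhibitor of translation, was at 2819, 2612 and 2504 and at 1451, 1501, 1341 and 1405 (−0.89 ± 0.07). Per kilobase of median annotated transcript length RPS18, at the head of the small subunit, was highest, with 3125 in siCON and 1784 in siYT.

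The stalk of the large subunit, which recruits the elongation factors, did not move as a unit. It is built on RPLP0, which anchors dimers of RPLP1 and RPLP2, with RPL12 at its base. RPLP0, for which the study lists quantitative PCR primers, was at 2625, 2632 and 2311 in siCON against 1170, 1176, 1083 and 1129 in siYT, 2.21-fold lower (log2 fold change −1.14 ± 0.07 SE, limma adjusted p = 4.96e-10). RPL12 went from a mean signal of 1029 ± 72.3 to 520 ± 9.69 (log2 fold change −0.98 ± 0.06). RPLP1 was at 1106, 985 and 1021 in siCON against 727, 705, 626 and 702 in siYT (−0.59 ± 0.06, adjusted p = 6.33e-07). It was the called member nearest to the threshold, and its call ended without siCON A (−0.54), without siYT C (−0.54), with equal totals (−0.48) and with totals set equal over all other genes (−0.53). With the trend on transcript length removed RPLP1 was at −0.07 and RPL12 at −0.53, neither of them called. RPLP2 was at 400, 351 and 386 in siCON against 365, 375, 350 and 381 in siYT. Its groups overlapped, and its log2 fold change of −0.04 ± 0.06 did not pass (adjusted p = 0.502) and was 0.07 with equal totals and 0.02 with totals set equal over all other genes. RPLP2 signal was therefore 13.3% to 16.7% of RPLP0 signal in siCON and 31.2% to 33.8% in siYT, and 35.7% to 37.8% and 50.2% to 55.9% of RPLP1 signal. RPLP0, RPLP1 and RPLP2 all carry a TOP start in the windows above, with 8, 10 and 12 pyrimidines after the C. RPLP2 shares its locus with PIDD on the other strand (mean signal 20.03 in siCON and 17.7 in siYT), whose reads cannot be told apart without strand.

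**Figure D3:**
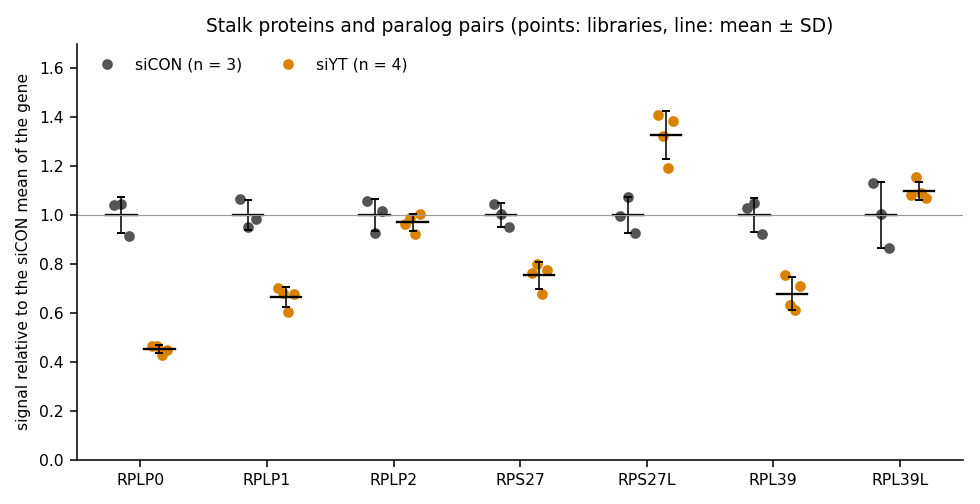
Signal of each library divided by the siCON mean of the gene for the stalk genes RPLP0, RPLP1 and RPLP2 and for RPS27, RPL39 and their paralogs, with siCON (n = 3) in grey, siYT (n = 4) in orange and lines for the mean ± SD. RPLP0 falls to under 0.5, RPLP2 and RPL39L overlap between groups, and RPS27L is above 1 in all 4 siYT libraries.

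Members of the 5S particle and of growth signalling were also called lower in the values as deposited. RPL5 and RPL11, which bind 5S ribosomal RNA and can hold MDM2 when ribosome assembly fails, were both called. RPL5 was at 1254, 1296 and 1155 in siCON against 694, 716, 680 and 711 in siYT (log2 fold change −0.82 ± 0.06 SE, limma adjusted p = 3.98e-09). RPL11 was at 1412, 1375 and 1330 and at 873, 896, 816 and 912 (−0.65 ± 0.06, adjusted p = 6.93e-08), and it lost its call with equal totals (−0.54). With the length trend removed neither was called, RPL5 at −0.49 and RPL11 at −0.34. RPS6, the substrate of the S6 kinases, was at 1631, 1647 and 1514 in siCON against 856, 887, 823 and 892 in siYT (−0.89 ± 0.06). RPS27A, made as a fusion with ubiquitin, was at 896, 903 and 817 and at 446, 480, 412 and 477 (−0.94 ± 0.06). In none of the 4 did the groups overlap. Of 9 proteins that line or surround the peptide exit tunnel 7 fell (median −0.74), with RPL19 and RPL39 under the fold threshold. Of 18 genes mutated in Diamond-Blackfan anaemia, a failure of red cell production, 16 fell (median −0.71), and RPS19 and RPS27 did not reach the threshold. With the length trend removed 1 of the 9 tunnel proteins and 2 of the 18 anaemia genes were called, much like the share of all genes. Of all genes tested 13.2% were called lower as deposited and 11.3% with the length trend removed.

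Only 2 members had a log2 fold change above 0, the paralogs RPS27L and RPL39L, and neither was called as deposited. RPS27, a small subunit protein, was at 882, 848 and 802 in siCON against 644, 676, 570 and 654 in siYT, a log2 fold change of −0.41 ± 0.06 (SE) under the fold threshold (limma adjusted p = 2.98e-05). RPS27L, its near-identical paralog and a known p53 target, was at 35.0, 37.8 and 32.6 in siCON against 49.5, 46.5, 41.9 and 48.6 in siYT. All siYT libraries were above all siCON libraries, as they were for 34.1% of genes tested, with a log2 fold change of 0.40 ± 0.07 (adjusted p = 8.46e-05) that also stayed under the fold threshold. As a share of RPS27 signal, RPS27L was at 3.97% to 4.45% in siCON against 6.88% to 7.69% in siYT. RPS27L has no TOP start and RPS27 has one, as the windows show. LACTB, which overlaps RPS27L on the other strand, had a mean signal of 27.2 in siCON and 28.2 in siYT.

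RPL39, a very small protein of the exit tunnel, was at 528, 537 and 473 in siCON against 388, 324, 314 and 364 in siYT (log2 fold change −0.56 ± 0.07 SE, limma adjusted p = 4.02e-06). Its fall reached the threshold without siCON C (−0.62), without siYT A (−0.62) and without siYT D (−0.59). RPL39L, the paralog known from male germ cells, was at 6.35, 5.63 and 4.85 in siCON against 6.06, 6.47, 6.11 and 5.995 in siYT. Its groups overlapped (log2 fold change 0.13 ± 0.10, adjusted p = 0.273). RPL3L, the striated muscle paralog of RPL3, was near the lower end of the table at 0.81, 0.51 and 0.84 in siCON and 0.42, 0.67, 0.66 and 0.77 in siYT. RPL10 and RPS4X, which lie on the X chromosome, both fell. RPL10 went from 1722, 1621 and 1554 to 866, 862, 751 and 813 (log2 fold change −0.99 ± 0.06), and RPS4X from 1320, 1382 and 1211 to 774, 790, 728 and 768 (−0.77 ± 0.06). Paralogs outside the rule were RPL26L1, which fell (log2 fold change −0.72), and RPL36AL (−0.46), RPL7L1 (−0.28) and RPL22L1 (−0.24), which did not reach the fold threshold.

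The members that did not reach the threshold were few and most of them fell by less. At the boundary RPLP1 lay just inside and RPL28 just outside. RPL28 was at 740, 612 and 668 in siCON against 458, 453, 445 and 444 in siYT (log2 fold change −0.58 ± 0.06 SE, limma adjusted p = 4.67e-07), and it passed without siCON B (−0.64) and without siYT A (−0.58). RPL36, whose locus overlaps parts of LONP1 and 2 other genes, was at 443, 372 and 403 and at 305, 305, 293 and 309 (−0.42 ± 0.06). RPS19, the gene most often mutated in Diamond-Blackfan anaemia, was at 1251, 1007 and 1086 and at 851, 864, 777 and 837 (−0.42 ± 0.07, adjusted p = 7.70e-05). In all of these the groups stayed apart. RPL19, RPS15 and RPL9 make up the rest of the 8 that were lower at an adjusted p under 0.05 without a 1.5-fold change, with log2 fold changes of −0.55, −0.51 and −0.50. At any fold 77 members were lower at that adjusted p, against 34.9% of all genes tested. The remaining 3 members not called were RPLP2, RPL39L and RPS27L.

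Features of the genes went with the size of the fall only in part. Members with a TOP start had a median log2 fold change of −0.77 (40 of 46 called), and members with a promoter and no TOP start −0.68 (13 of 17 called). With the length trend removed the order turned, with −0.40 (13 called) for a TOP start and −0.44 (5 called lower) for none. Among all members 69 of 80 were called lower as deposited and 22 of 80 with the length trend removed. The shares of all genes tested were 13.2% and 11.3%. Among the 62 with a promoter entry and leaving out RPS27L, the number of pyrimidines after the C had no relation to the log2 fold change across genes (Pearson r = 0.007). Where a gene had several promoter entries, the longest run was taken. The 29 members that hold at least 1 of 60 annotated snoRNA genes had a median of −0.80 (27 called), and the 51 tested without one −0.75 (42 called). Signal was the measure most closely tied to the change. Across the 77 standard members log2 siCON signal and log2 fold change had r = −0.53 (Spearman rho −0.53), and per kilobase of transcript r = −0.30. The siCON signal enters both measures, genes share the libraries, and they are not independent replicates. The 26 members with the highest siCON signal had a median log2 fold change of −0.89 and held 60.1% of the summed fall, and the 26 with the lowest had −0.70 and held 13.9%.

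Ribosomal protein genes have left many processed copies in the genome, with 1587 annotated pseudogenes named for 77 of the members, and RPL21 leads with 133. Reads that match both cannot be placed with certainty. The table holds 82 such pseudogenes, of which 36 were tested and 25 fell (median log2 fold change −0.74). With equal totals 20 of them were lower. With the length trend removed, which took the 35 with an annotated length, 9 were lower and 2 higher (median −0.38). Of all genes tested 13.2% were lower as deposited and 9.79% with equal totals. With the length trend removed 11.3% of all genes were lower and 13.4% higher. RPS2P46 had the largest fall among those tested, from 471 ± 37.6 to 179 ± 9.11. The number of named pseudogenes and the log2 fold change of the 77 standard members had r = −0.19. Of the members, 33 overlap another gene of the table, and the sources used here do not give how strand was handled.

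Transcript length moved with the result. The members are short, with a median annotated transcript of 754 bases against 2630 over all genes tested, and other short genes were lower as well. Among 1093 other tested genes under 1000 bases the median log2 fold change was −0.34, with 331 lower and 70 higher. In the 136 of these that averaged at least 100, the median was −0.42, with 50 lower and 6 higher, while 1706 other genes of that level and any length had a median of 0.01. A trend on length was fitted in each library to the deviations of log2 values from the gene mean and removed before the limma fit. This left 22 members lower (13 large, 9 small) and 1 higher, RPS27L (0.74), where 11.3% of genes were lower and 13.4% higher. The median of the members was then −0.42, beside −0.004 over all genes, and 74 of 80 were still negative. RPS2 (−1.15), RPSA (−1.03), RPL4 (−1.02), RPL3 (−0.99), RPLP0 (−0.89), RPS3 (−0.78), RPL7A (−0.72) and RPL37A (−0.70) kept their calls. RPLP2 was then at 0.42, RPS27 at 0.16, RPL36 at 0.04 and RPS19 at 0.02, none of them called. Within the members the order was the other way, with a median of −0.80 as deposited for the 21 of at least 1000 bases, 21 of them called, and −0.74 for the 59 shorter ones, 48 of them called. With the length trend removed 13 of the 21 and 9 of the 59 were called lower (medians −0.65 and −0.33). Which calls were kept thus went with the listed length. The median annotated transcript is not always the one a cell makes, as for RPL14, which is listed with 7072 bases. RPL14 went from −0.80 as deposited to −1.02 and is among the 22. The part of length in the fall was not tested further.

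**Figure D4:**
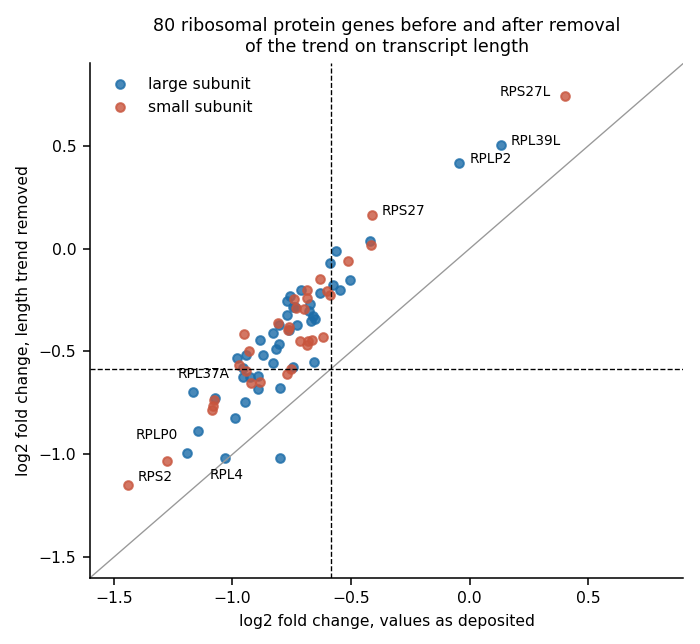
Log2 fold change of the 80 tested ribosomal protein genes as deposited (horizontal) and after removal of the trend on transcript length (vertical), by subunit, with dashed lines at a 1.5-fold fall and a grey line where both are equal. Most points lie above the grey line, 22 stay below the horizontal dashed line, and RPS27L, RPL39L and RPLP2 stand apart at the upper right.

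Genes that work with the ribosomal proteins were described from lists by the same fit, in which 13.2% of all genes tested were lower and 14.1% higher. Of 21 genes for translation factors and related proteins known for TOP mRNAs, 11 fell and 0 rose (median −0.59). In 21 of 21 every siYT library lay below every siCON library, a separation found for 34.7% of all genes tested. EEF1B2, an exchange factor for the elongation factor eEF1A, fell 2.54-fold (280 ± 19.9 to 110 ± 5.81), EEF1G fell 2.14-fold and EEF1A1, the elongation factor itself, 2.13-fold (17895 ± 1280 to 8394 ± 332). Of 12 snoRNA host genes with TOP-type transcripts, 9 fell and 0 rose (median −0.86), with SNHG8 2.76-fold, FAM211A-AS1 2.40-fold and GAS5 2.19-fold lower. By the same start rule 14 of 15 of the translation genes and 3 of 10 of these hosts had a TOP start in RefSeq. Of 6 ribosomal proteins and paralogs outside the rule, FAU and RPL26L1 fell (median −0.52), 1 was lower with equal totals and 0 with the length trend removed (median −0.20). The translation genes then had 10 lower and the snoRNA hosts 8, where 11.3% of all genes were.

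Ribosome assembly genes were lower in part. Of all genes tested 13.2% were called lower as deposited and 9.79% with equal totals. Of 26 biogenesis genes 14 fell and 0 rose (median −0.68), and the largest falls were in NOP16 (2.19-fold), NOP10 (2.06-fold), a component of the pseudouridylation complex, and RRP9 (2.03-fold). NOP58 and UBTF, a factor of RNA polymerase I, had log2 fold changes of 0.13 and 0.20 and were not called. Of 10 dedicated chaperones and late 40S factors 3 fell, PDCD2L, NOB1 and PDCD2 (median −0.36), but 2 with equal totals and 0 with the length trend removed. The mitochondrial ribosome, built from other genes, had 31 of 76 lower and 0 higher (median −0.52), led by MRPS17 (2.18-fold), MRPL23 (2.07-fold) and MRPL33 (1.94-fold). With equal totals 18 of these 76 were lower, and with the length trend removed 7 were lower and 2 higher, where 11.3% of all genes were lower. Of 13 mRNAs encoded in mitochondria 11 fell (median −0.88), led by MT-CO2 (2.14-fold), MT-CO3 (2.11-fold) and MT-ND6 (42.8 ± 10.4 to 20.8 ± 1.71). With equal totals 11 were lower and with the length trend removed 5 (median −0.53). The biogenesis list then had 11 lower. A count of 0 higher as deposited in these lists was also 0 by unadjusted p with the same fold.

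**Figure D5:**
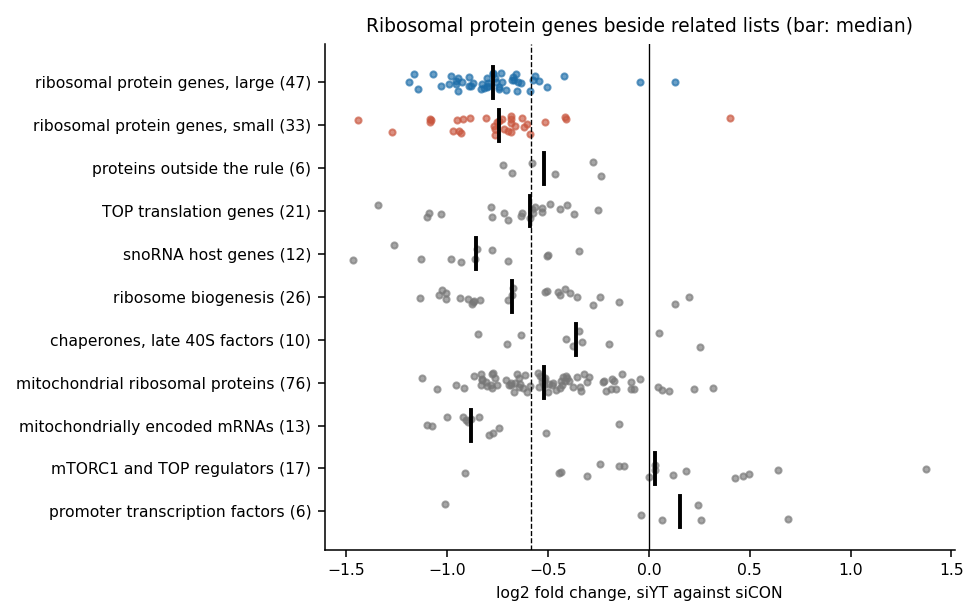
Log2 fold change of each tested gene in the large and small subunit and in 9 related lists, with the number tested in brackets, a black bar at the median and a dashed line at a 1.5-fold fall. The subunit medians (−0.77 and −0.74) lie between those of the snoRNA hosts (−0.86) and of ribosome biogenesis (−0.68), and the 2 regulator lists at the bottom have medians above 0.

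Calls among known regulators of ribosomal protein genes went both ways. Of 17 tested genes of mTORC1 and of TOP mRNA control, 1 fell and 2 rose (median 0.03), where 13.2% of all genes were lower and 14.1% higher. The list mixes activators and repressors, so its median gives no direction for the pathway. With the length trend removed EIF4EBP1 (−0.58) and RPS6KB1 (0.53) lost their calls, which left 0 lower and 1 higher. EIF4EBP1, a repressor of cap-dependent translation, fell 1.88-fold (48.2 ± 4.38 to 25.4 ± 1.59), while its paralog EIF4EBP2 rose 2.59-fold (89.6 ± 5.69 to 233 ± 11.6, limma adjusted p = 1.08e-11). RPS6KB1, the S6 kinase that phosphorylates RPS6, rose from 29.1 ± 1.93 to 45.7 ± 1.91. LARP1, the TOP-binding protein, was at 256 ± 2.95 and 207 ± 9.85, under the fold threshold (log2 fold change −0.31). MTOR did not pass (58.0 ± 2.36 and 63.1 ± 1.54, adjusted p = 0.0502). At any fold 12 of the 17 genes had a limma adjusted p under 0.05, as had 9101 of the 13072 genes tested. Among the 12 were TSC1 (0.50), TSC2 (0.43), RHEB (−0.45) and MLST8 (−0.44), all under the fold threshold. So were TIA1 (0.47), LARP4 (0.19), EIF4E (−0.15) and CNBP (−0.24). With the length trend removed TSC1, TSC2, RHEB and MLST8 were at 0.31, 0.24, −0.14 and −0.32. TIA1, LARP4, EIF4E, CNBP and LARP1 were then at 0.35, 0.08, 0.09, −0.10 and −0.52. Of 6 transcription factors known at ribosomal protein promoters, MYC fell 2.01-fold, SP1 rose 1.61-fold and the other 4 were not called (median 0.15). SP1 lost its call with the length trend removed (0.46).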

How the data were processed

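Libraries were grouped by their labels, as siCON (n = 3) and siYT (n = 4). Per the processing notes reads were trimmed with cutadapt 1.18 (the methods name another trimmer), aligned with STAR 2.6.1 to hg19 and quantified in Partek 8.0.19.0819, and genes under 8 reads were removed. The deposited values are a TMM-normalised signal per gene by the authors, with totals of 866098 to 955106 per library. Whole reads could not be recovered, so no count model was fitted. A second table, holding the authors' own comparison (p-values, q-values, fold changes and group means), was not used. Of 18478 entries, 1792 repeats of a symbol on further contigs, with identical values, were dropped.

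Log2(signal + 0.5) was fitted with limma 3.58.1 (R 4.3.3, statmod 1.5.0, empirical Bayes with a mean-variance trend, no covariate). Tested on simulated data for this comparison over 13072 genes, the fit recovered 96% of 2-fold and 100% of 4-fold changes. Sums, ratios and figures were made with Python 3.11.15. Transcript lengths are medians over GENCODE 44 transcripts lifted to hg19. RACK1 and SNHG29 were matched as GNB2L1 and FAM211A-AS1. A few genes are counted but not reported by name here. Members and lists were chosen with earlier results of these data known. Values in each library are given for the 4 lowest and 3 highest members of each subunit, the 3 with the highest signal, the stalk, 5S, S6 and ubiquitin fusion genes, paralogs with their main genes and the members at the threshold. From each list the text names at most 3 of its called members, those that changed most. Other genes named were chosen after their values were seen. Among them are NOP58, UBTF, LARP1, MTOR, TSC1, TSC2, RHEB, MLST8, TIA1, LARP4, EIF4E, CNBP and members of the 5S, stalk and threshold groups. Alternatives were other pseudocounts, filters, scalings, no trend, removal of the length trend, a replicate block and each library left out.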

Additional observations from a re-analysis of the deposited data

Results flagged for a closer look

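Of the values examined for a siYT library far from the other 3, a single one stood out. RPL7L1, a paralog outside the rule, had 24.3% of the signal of RPL7 in siYT C, against 21.98% to 22.2% in the other siYT libraries and 13.7% to 14.7% in siCON. Chance singles out about 1 in 20 such groups, and 45 values were examined.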

How the results depend on the processing

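The median of the members stayed negative under each alternative run, with 0 called higher apart from 1, RPS27L, once the length trend was removed. With 2 other pseudocounts, 2 other filters, median-of-ratios scaling and no mean-variance trend 69 were called lower. Over all genes these runs gave 2824 to 4001 calls either way, 50.4% to 51.7% of them upward. Leaving out each library in turn gave 65 to 71 lower members (39 to 42 large, 26 to 29 small), medians of −0.80 to −0.72 (large −0.83 to −0.75, small −0.77 to −0.70) and a siYT sum of 0.543 to 0.572 of the siCON sum. All genes then had 3483 to 3755 calls, 51.1% to 52.1% of them upward. Equal totals gave 51 (19 small), medians of −0.65, −0.66 and −0.63 for all, large and small, and a sum ratio of 0.603. Totals set equal over all other genes gave 63, among 3594 calls over all genes, 58.6% of them upward. Removing the length trend gave 22 (13 large, 9 small) and 1 higher, with medians of −0.42, −0.41 and −0.43. Fitting that trend without the members, an alternative chosen after seeing the data, gave 25 (14 large, 11 small) and 1 higher, with medians of −0.45, −0.44 and −0.45. This fit had 3067 calls over all genes, 53.8% of them upward. Each of these corrections takes a trend or a total out of the values. What the shifts owe to transcript length or to library totals was not tested. Without siYT A and siYT B together, also chosen after seeing the data, 73 were lower. More genes were called in that run as a whole, 3818 against 3579 in the main fit, with 50.2% and 51.6% of calls upward.

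Directions changed for 4 of the members named. RPLP2, near 0 as deposited, was at 0.069 with equal totals, 0.019 with totals equal over other genes, 0.42 with the length trend removed and 0.38 with the trend fitted without members. RPL36 was at 0.035 and 0.0026, RPS27 at 0.16 and 0.12 under the 2 length fits, and RPS19 at 0.017 under the first, where as deposited these 3 were lower without reaching 1.5-fold (−0.42, −0.41 and −0.42).

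Whether the letters of the replicates pair the samples was not settled, and the main fit used no pairs. Deviations of same-lettered libraries correlated at 0.16, 0.03 and 0.18 for A, B and C. The libraries siYT A and siYT C correlated best with their own letter, and siYT B with siCON A (0.18). With the letter as a replicate block, which leaves out siYT D, 70 members were lower (median −0.76), among 3528 calls over all genes, 51.5% of them upward. RPL3L and RPL39L had low signals, so small differences in them were not detectable at this depth.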
